A study of Mus musculus with 13 samples.

Results

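The genes described are 44 transcripts of the skeletal muscle sarcomere and of its excitation and energy supply, followed in RNA sequencing of mouse interscapular brown adipose tissue (iBAT). They were chosen by name, with earlier results of these data known, out of 42416 gene identifiers in the count files. They come from the thin filament (8 genes), the thick filament (8), titin with the Z-disc and cytoskeleton (12), excitation and calcium handling (10) and energy supply (6). All 44 had a row. Of the mice, 8 were labelled iFAXLKO (Axl flanked by loxP sites, Cre+) and 5 WT (Axl flanked by loxP sites, Cre-), and 1 library was made from each. Both groups were kept at room temperature, ate a high-fat diet (HFD) and were given tamoxifen every 3 weeks. The methods of the study describe the Cre as an inducible CreERT2 under Adipoq control, carried on a bacterial artificial chromosome, a promoter active in adipocytes, and the controls lack this transgene. The age of the mice is not given in the labels.

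A muscle fibre shortens when myosin heads of the thick filament pull on actin of the thin filament, and troponin on the thin filament lets them do so once calcium binds to it. Calcium is released from the sarcoplasmic reticulum through the ryanodine receptor when the voltage-sensing calcium channel of the membrane is excited, and it is pumped back by SERCA1. Fast and slow fibres use different genes for the same part, so that myosin heavy chain and each troponin subunit exist as a fast and a slow version. Brown adipocytes arise from precursors related to those of muscle, and the interscapular depot lies over muscles of the back.

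To show what stands before genes with a wide and with a narrow range of levels in these libraries, the stretches upstream of 4 genes are printed from the RefSeq promoter table (GRCm38.p6), 5′ to 3′ on the strand of the gene. Acta1, skeletal alpha-actin of the thin filament, and Ckm, the muscle creatine kinase that regenerates ATP, differed over 1000-fold between libraries, whereas Myl1, a fast myosin light chain, and Des, the intermediate filament protein desmin of skeletal, cardiac and smooth muscle, differed by 3.98-fold and 3.36-fold. Capitals mark E-boxes (CANNTG, the core letters bound by MyoD and related factors) and, in Acta1, the CArG box (the motif of serum response factor). The windows are the 250 bases before the RefSeq start, shortened for Ckm to 181 and for Myl1 to 147 bases where GENCODE M21 places an exon. They lie at chr8:123894776-123895025 (Acta1, minus strand), chr7:19410844-19411024 (Ckm, plus strand), chr1:66945144-66945290 (Myl1, minus strand) and chr1:75360042-75360291 (Des, plus strand).
Acta1: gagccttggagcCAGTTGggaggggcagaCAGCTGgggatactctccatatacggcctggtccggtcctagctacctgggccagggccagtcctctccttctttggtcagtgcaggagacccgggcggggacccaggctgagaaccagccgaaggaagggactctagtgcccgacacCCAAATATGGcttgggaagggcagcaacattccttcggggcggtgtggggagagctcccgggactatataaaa
Ckm: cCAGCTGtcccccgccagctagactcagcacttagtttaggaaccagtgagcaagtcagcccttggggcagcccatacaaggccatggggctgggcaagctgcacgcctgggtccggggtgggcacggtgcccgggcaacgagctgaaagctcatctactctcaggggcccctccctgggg
Myl1: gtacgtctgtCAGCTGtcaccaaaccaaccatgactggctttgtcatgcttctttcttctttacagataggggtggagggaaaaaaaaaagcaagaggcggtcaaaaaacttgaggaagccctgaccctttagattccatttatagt
Des: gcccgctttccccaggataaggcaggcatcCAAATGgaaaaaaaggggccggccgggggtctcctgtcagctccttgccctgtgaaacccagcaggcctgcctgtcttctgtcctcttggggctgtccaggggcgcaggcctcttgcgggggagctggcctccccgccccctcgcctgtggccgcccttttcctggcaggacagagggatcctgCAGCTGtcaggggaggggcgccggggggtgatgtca

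All 4 stretches held an E-box, 2 of them in Acta1, 2 in Des, 1 in Ckm and 1 in Myl1. The CArG box stood in the Acta1 window. RefSeq had a promoter for 31 of the 44 genes (38 promoters), and both strands of the 250 bases were searched. An E-box was in 81.6% of these 38 promoters against 66.2% of all 32851 promoters of the table. A CArG box was in 10.5% against 1.47%, a MEF2 site in 15.8% against 2.92% and the TATA motif (TATAAA), whose letters can overlap a MEF2 site, in 13.2% against 12.4%. These are counts of letters, with no test.

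Libraries held between 22.4 and 32.6 M counts, of which the 44 genes took between 0.0226% and 0.848%. Counts per M counts (CPM) are given with TMM scaling factors. A count of 0 allows up to 3 counts, that is 0.092 to 0.134 CPM. Such limits and the intervals given further on cover counting error only, because the reads carry no molecular identifiers and need not stem from independent molecules. Axl, which the Cre targets, was at 33.2 ± 6.17 CPM (SD, n = 8) in the libraries labelled iFAXLKO and at 27.8 ± 3.83 CPM (SD, n = 5) in WT, and so was not lower in the former. The log2 fold change was 0.25 (SE 0.13) at an edgeR adjusted p of 0.699, 6 of 8 libraries lay above the WT mean, and the value stayed between 0.18 and 0.33 with any 1 library left out. The counts cover the whole gene in all cells of the depot, and the groups are therefore named by their labels. The brown fat markers were present throughout, with Ucp1, the uncoupling protein of brown fat, between 4037 and 7907 CPM.

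The muscle genes differed far more between mice of the same group than between the groups. Acta1 (ENSMUSG00000031972, chromosome 8, 123891769 to 123894751, GRCm38) had 804, 344, 39.4, 19.8, 1282, 194, 163 and 0.439 CPM in libraries 1 to 8 labelled iFAXLKO, and 890, 676, 295, 273 and 4.81 CPM in WT libraries 1 to 5. The highest library was 2924-fold above the lowest, in which 11 counts were found, and both groups held libraries at each end. The summed level of the 44 genes ran from 231 to 8678 CPM in the iFAXLKO libraries and from 238 to 6216 CPM in the WT libraries, a fold of 37.5 over all 13. In a bulk sample, fewer muscle cells and less muscle RNA per cell cannot be told apart, and the source of these transcripts in the dissected depot was not tested.

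**Figure D1:**
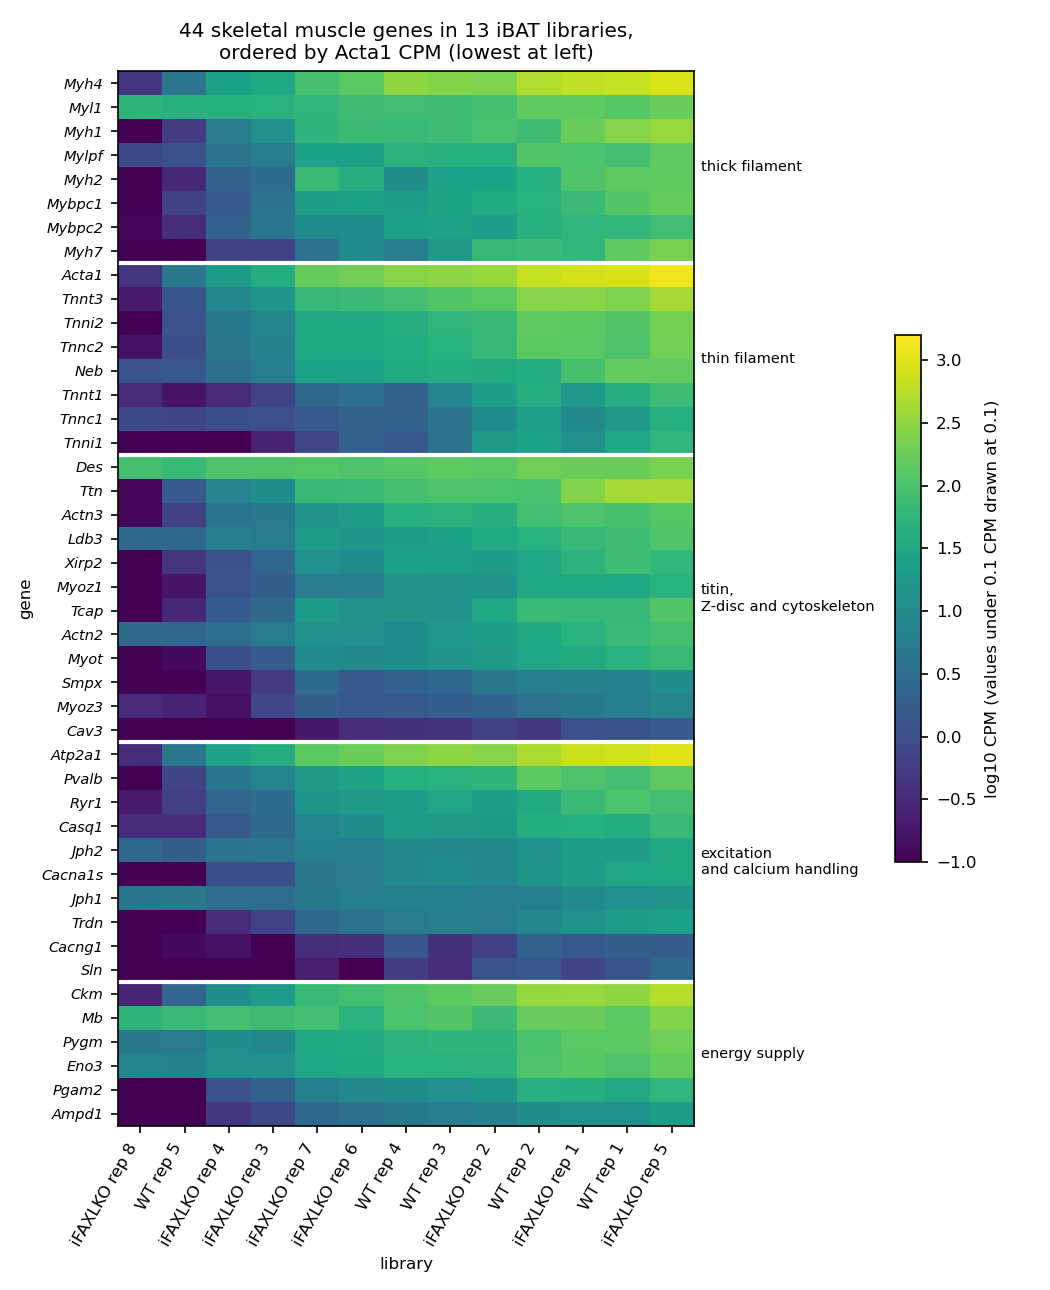
Heat map of the log10 CPM of the 44 genes (rows, by role) in the 13 libraries (columns, lowest Acta1 at left), with values under 0.1 CPM drawn at 0.1. Most rows run from dark to light from left to right together, whereas Myl1, Des and Mb stay light in every library.

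Covariation was measured by correlating the log2 CPM of every gene tested with that of Acta1 over the 13 libraries. Of 41 muscle genes tested besides Acta1, 38 passed the limit with a positive Pearson's r (permutation p adjusted by Benjamini-Hochberg over 13359 genes), where the background was 1.31% of all genes with a positive and 0.00749% with a negative r. The median r of the 41 was 0.98, against 0.00 over all genes, and 27 of 41 had an r above 0.95. Because the genes were chosen with earlier results of these data known, these counts are descriptions. By Spearman's rho, 40 of 41 passed. The adjusted p of 0.00108 given to most of them is the smallest that 100000 orders allowed. Without the pair of libraries farthest from the median of Acta1, iFAXLKO replicate 8 and WT replicate 5, 40 of 41 passed. With group means subtracted 37 passed. Among the 6 libraries with the lower library numbers the median r was 0.99 and among the 7 with the upper numbers 0.98. All 41 genes had a positive r in each range. In either range 0 genes passed the limit (smallest adjusted permutation p over all genes 0.235 and 0.102). So few libraries have few orders, and the smallest unadjusted permutation p was 0.00139 and 0.000198. Over 13359 genes such values can hardly pass, so the 0 says little about covariation within the ranges.

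Of the thin filament genes besides Acta1, 6 of 7 tested passed, with a median r of 0.96, the lowest of the roles. The fast troponins gave some of the highest values. The slow troponins were lower, with r 0.91 for Tnni1, 0.88 for Tnnt1 and 0.80 for Tnnc1, which did not pass (permutation adjusted p 0.0585). Tnni2, the fast troponin I that blocks myosin binding at rest, had r 1.00 (rho 0.98, permutation adjusted p 0.00108) and CPM of 120, 147, 57.5, 41.7 and 1.18 in WT libraries 1 to 5 against a lowest, median and highest of 0.0399, 33.3 and 210 in the iFAXLKO libraries. Tnnt3, the fast troponin T that holds the complex on tropomyosin, had r 1.00 and 246, 269, 114, 88.3 and 1.31 CPM against 0.199, 67.8 and 429. Tnnc2, the fast troponin C that binds calcium, also had r 1.00, with 111, 141, 48.4, 38.9 and 1.01 CPM against 0.159, 31.6 and 200. For each of these fast troponins WT replicate 5 and iFAXLKO replicate 8 lay far below all other libraries and the groups overlapped. In Tnnc2, 74% of the exon bases are shared with Ube2c, and the strand setting of the counts is not stated. Neb, the ruler protein nebulin, had r 0.96.

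Per kilobase of exon, Acta1 was the highest of the 44 genes, with a median over the 13 libraries of 178 CPM per kb. Atp2a1 followed with 69.6, Mb with 59.8 and Tnnt3 with 55.8 CPM per kb. Ttn, which has by far the longest exon sequence, 116825 bases, had 0.793 CPM per kb although its 92.7 CPM was among the higher values without regard to length.

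In the thick filament the adult myosin heavy chains Myh1, Myh2, Myh4 and Myh7 had r of 0.99, 0.96, 1.00 and 0.95. Myh4, the motor of the fastest (IIB) fibres, had 706, 500, 264, 312.9 and 4.48 CPM in WT libraries 1 to 5 against a lowest, median and highest of 0.439, 113 and 957 in the iFAXLKO libraries. Myh1, the motor of IIX fibres, had 277, 77.9, 80.0, 67.6 and 0.549 CPM against 0.0399, 64.3 and 355. The ranges of the groups overlapped for both, and the lowest and the highest library were iFAXLKO libraries. Myh2, Myh1 and Myh4 are close paralogs that stand next to each other on chromosome 11 (67171027 to 67260446, GRCm38), and how reads were split between them is uncertain. The myosin binding proteins Mybpc1 and Mybpc2 had r 0.99 each, and the light chain Mylpf 0.98. Of the thick filament genes Myl1 was lowest with r 0.80 (rho 0.93, permutation adjusted p 0.0478).

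Among genes of titin, the Z-disc and the cytoskeleton, all 11 tested passed. Ttn, the spring that spans from the Z-disc to the middle of the sarcomere, had r 0.99 and 425, 97.8, 107, 92.7 and 1.56 CPM in WT libraries 1 to 5 against 0.12, 67.3 and 435 as the lowest, median and highest of the iFAXLKO libraries. In WT replicate 2 Ttn stood with replicates 3 and 4, whereas Acta1 was higher in that library than in either of them. This was not particular to Ttn, as Neb had 38.9 against 39.4 and 35.6 CPM and Myh1 77.9 against 80.0 and 67.6 CPM. Ckm went with Acta1, at 347 against 139 and 111 CPM. The cause was not tested. Actn3, the alpha-actinin of fast fibres, had r 0.99 and Actn2, which is found in all fibres, 0.90. Tcap, Xirp2, Myot and Myoz1 had r from 0.98 to 0.99. The lowest of the group were Myoz3 with 0.89 and Des with 0.83 (permutation adjusted p 0.0142). Cav3, the caveolin of muscle, was under the filter with at most 1.61 CPM.

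Of the excitation and calcium genes 8 of 9 tested passed. Atp2a1, the pump SERCA1, had r 1.00 and 786, 489, 311, 242 and 4.39 CPM in WT libraries 1 to 5 against 0.359, 160 and 1043 as the lowest, median and highest of the iFAXLKO libraries. Ryr1, the release channel, had r 0.99 and 101, 35.1, 30.6, 22.7 and 0.633 CPM against 0.199, 17.0 and 89.1. The groups overlapped for both. Cacna1s, the voltage sensor, and Pvalb, the calcium buffer of fast fibres, had r 0.99 each, and Casq1 and Trdn, which hold calcium near the release channel, 0.97 each. Cacng1, a subunit of the voltage-sensing channel, had r 0.91 at no more than 2.00 CPM. Jph1, a junctophilin that ties the reticulum to the membrane, had r 0.72 and did not pass (permutation adjusted p 0.345), although its rho was 0.92 (adjusted p 0.00237) and its r was 0.92 without the pair of libraries named above. Sln, sarcolipin, which binds SERCA pumps and is known for heat production in muscle, was under the filter with 1.28, 1.39, 0.354, 0.574 and 0 CPM in the WT libraries and 0, 0.113 and 2.66 CPM as the lowest, median and highest of the iFAXLKO libraries.

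Of the energy genes 5 of 6 passed. Ckm had the highest r of the 41 genes, 1.00 (rho 0.98), with 323, 347, 139, 111 and 2.36 CPM in WT libraries 1 to 5 against 0.279, 75.4 and 535 as the lowest, median and highest of the iFAXLKO libraries. Pgam2 and Ampd1, of glycolysis and the purine nucleotide cycle, had r 0.98 each, Pygm, the glycogen phosphorylase of muscle, 0.95 and Eno3, the muscle enolase, 0.93. Mb, myoglobin, the oxygen carrier of muscle, had the lowest r of the 41 genes, 0.69 (rho 0.80), and passed by neither measure (permutation adjusted p 0.385 and 0.0993). It had 136, 166, 121, 101 and 70.9 CPM in the WT libraries against 47.7, 80.6 and 250 CPM in the iFAXLKO libraries, where the lowest was replicate 6 and not replicate 8. Of the exon bases of Mb 31.9% are shared with Apol6 and Gm49540.

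Among the genes outside the 44 with the highest r with Acta1 were Eef1a2 (0.99), a translation elongation factor of muscle and nerve, Apobec2 (0.99), Ckmt2 (0.99), the mitochondrial creatine kinase of muscle, and Myom2 (0.99), of the M-band. Eef1a2 reached 72.4 CPM in iFAXLKO replicate 5 and was at 0 counts in iFAXLKO replicate 8. Over these 4 genes Spearman's rho was 0.96 to 0.99, and without the pair of libraries named above r was 0.98 to 0.99.

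The library with the lowest Acta1, iFAXLKO replicate 8, shows which of the genes stay expressed where the sarcomere genes nearly disappear. In it 10 of the 44 genes were above 1 CPM, 22 had 3 counts or fewer and 11 of these had 0 counts. Those with 0 counts were Myh7, Tnni1, Cacna1s, Cacng1, Tcap, Trdn, Sln, Xirp2, Smpx, Myot and Cav3. Each of the 10 genes above 1 CPM was also above 1 CPM in WT replicate 5, the library with the next lowest Acta1, where 19 were above it. Relative to its median over the 13 libraries Acta1 stood at 0.161% in iFAXLKO replicate 8. The levels in that library are those of 1 mouse, with no replicate check and no test.

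The genes that kept the largest share of their median in that library were Jph1 with 73.4%, Des with 73.0%, Myl1 with 68.1% and Mb with 59.3%, followed by Tnnc1 with 39.1%. Des had 178, 197, 142, 127 and 67.1 CPM in WT libraries 1 to 5 against a lowest, median and highest of 93.0, 118 and 225 CPM in the iFAXLKO libraries, a fold of 3.36 between the highest and the lowest library. Myl1 (chromosome 1, 66924295 to 66945404), whose exons are shared with no other gene, had 121, 151, 78.4, 81.5 and 46.0 CPM against 46.1, 69.2 and 183 CPM, a fold of 3.98. Jph1 had 12.8, 6.57, 6.57, 6.70 and 4.73 CPM against 3.29, 5.47 and 15.2 CPM, a fold of 4.63, and Mb a fold of 5.24. These 4 were the only genes of the list with a fold under 10 among those with over 3 counts in their lowest library, whereas 6 genes (Acta1, Myh4, Tnnt3, Tnnc2, Ckm and Atp2a1) had one above 1000.

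Per kilobase of exon, Mb (35.5 CPM per kb), Myl1 (26.0) and Des (24.8) were the highest of the 44 genes in iFAXLKO replicate 8, and Eno3 (4.38) and Pygm (1.44) followed. Acta1, the highest in the median library, was at 0.286 CPM per kb there. Myl1 was thus high where its partner chains were not, as Mylpf had 0.788 CPM per kb and Myh4 0.0729. Tnnc1, which had 39.1% of its median, rested on 21 counts (0.837 CPM) and had 0.76 CPM in WT replicate 5, against 43.3 CPM in iFAXLKO replicate 5. It did not pass with Acta1 by r (0.80, permutation adjusted p 0.0585) but did by rho (0.97, adjusted p 0.000825). Smaller shares were kept by Jph2 (26.2%), Actn2 (20.1%), Myoz3 (17.7%, on 8 counts), Eno3 (16.1%) and Ldb3 (11.8%).

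**Figure D2:**
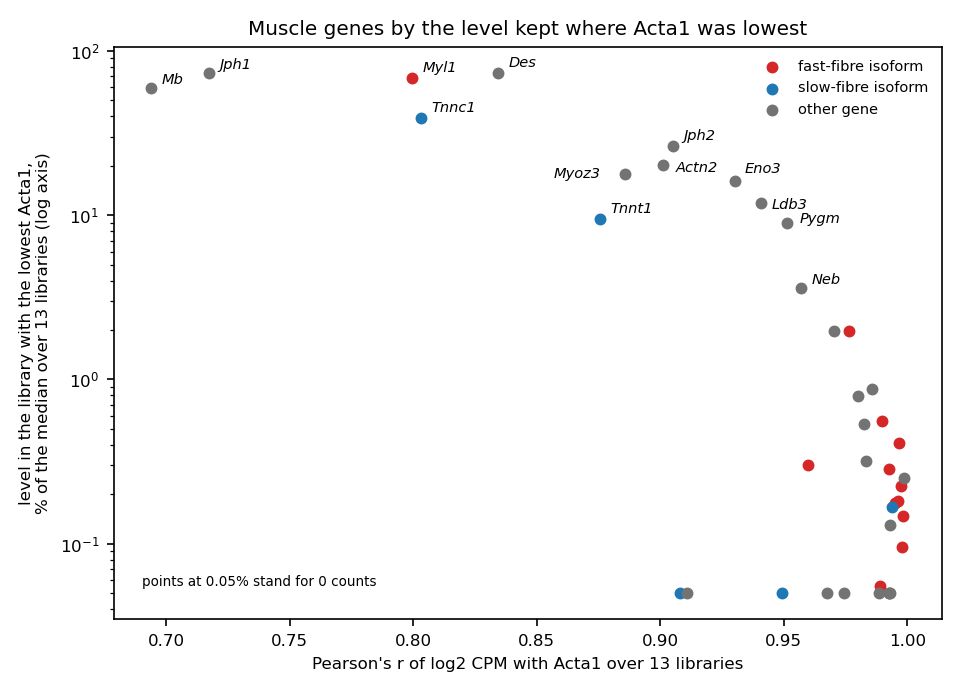
Share of its median level that each gene kept in the library with the lowest Acta1 (y, percent, log axis, 0 counts drawn at 0.05%) against its Pearson's r with Acta1 over 13 libraries (x), coloured by fibre type. Mb, Jph1, Myl1 and Des sit at the upper left with shares of 59.3% to 73.4%, and most fast-fibre genes sit at the lower right. The r includes the library of the y axis, so the axes are not independent and part of this slope is built in.

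Fibre type was described from the 4 adult myosin heavy chain genes, as shares of their summed CPM per kb. Myh4 held the largest share in all 13 libraries, from 44.5% in iFAXLKO replicate 7 to 85.3% in WT replicate 5. Myh7, the motor of slow fibres and of the heart, held 0.945% in iFAXLKO replicate 3, 1.11% in WT replicate 4, 1.33% in iFAXLKO replicate 7, 1.38% in iFAXLKO replicate 4, 3.17% in iFAXLKO replicate 6 and 3.54% in WT replicate 3. It held 4.51% in iFAXLKO replicate 1, 7.77% in WT replicate 2, 8.69% in WT replicate 1, 9.61% in iFAXLKO replicate 5 and 10.8% in iFAXLKO replicate 2. In iFAXLKO replicate 8 and WT replicate 5 there was no Myh7 count, 0 of 14 and 0 of 126 myosin counts, which allows shares of the counts of up to 21.4% and 2.38%. Of the exon bases of Myh7 13.3% are shared with other genes.

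The slow share did not simply follow the level of Acta1. WT replicate 4, WT replicate 3 and iFAXLKO replicate 2 had Acta1 of 273, 295 and 344 CPM and Myh7 shares of the counts of 1.57% (95% Wilson interval 1.34% to 1.82%), 4.88% (4.53% to 5.27%) and 14.5% (13.9% to 15.1%). These intervals do not overlap and cover counting error only. Myh2, the motor of IIA fibres, held 28.0% of the level per kb in iFAXLKO replicate 7 and 14.1% in iFAXLKO replicate 6, and between 2.52% and 12.4% in the others. The mean Myh7 share differed by -0.25 percentage points between iFAXLKO and WT per kb and by -0.38 points without division by exon length, which is small beside the spread of 0% to 10.8% over the libraries. These means take iFAXLKO replicate 8 and WT replicate 5 as 0%, although the former had only 14 myosin counts. The sign of the difference is therefore uncertain.

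**Figure D3:**
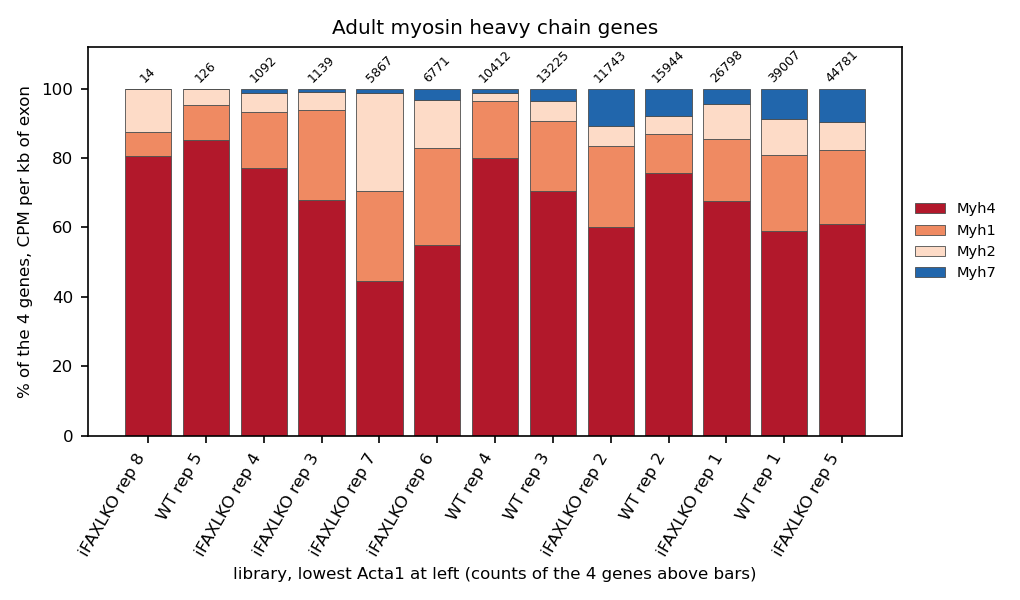
Shares of Myh4, Myh1, Myh2 and Myh7 in their summed CPM per kb (bars to 100%) in each library, lowest Acta1 at left, with the number of counts of the 4 genes above each bar. Myh4 is the largest part of every bar, Myh7 reaches 10.8% in iFAXLKO replicate 2, and Myh2 is widest in iFAXLKO replicate 7.

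Slow and fast versions of the same part were then compared as log2 ratios of their CPM, a measure chosen after the values were seen, over the 11 libraries in which each of the 8 genes had at least 3 counts. Tnni1 over Tnni2 ranged from -5.80 in iFAXLKO replicate 4 to -1.85 in iFAXLKO replicate 5, a fold of 15.4. The lower end rested on 3 counts of Tnni1, and iFAXLKO replicate 3 had 6, so this range is uncertain. Myh7 over Myh4 ranged from -5.65 to -1.95, a fold of 13, and Tnnt1 over Tnnt3 from -5.42 to -2.46, a fold of 7.76. Tnnc1 over Tnnc2 had the narrowest range, from -4.36 to -2.21, a fold of 4.46. Slow versions were below their fast version in every one of these libraries.

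The ratio of Myh7 to Myh4 varied with that of Tnni1 to Tnni2 (Pearson's r 0.94, permutation p 0.00018, adjusted over 10 relations 0.00107, rho 0.90, adjusted p 0.00127) and with that of Tnnt1 to Tnnt3 (r 0.92, permutation p 0.00032, adjusted 0.00107, rho 0.90, adjusted p 0.00127). The r of the former was 0.97 over the 6 libraries with the lower library numbers and 0.88 over the 5 with the upper, and that of the latter 0.94 and 0.96. Values over so few libraries are descriptions, with no test. Without iFAXLKO replicate 3 and WT replicate 4, the pair farthest from the median of the Myh7 to Myh4 ratio, the r were 0.99 and 0.94. Of these genes, Tnni2 and Tnnt3 lie 54.4 kb apart on chromosome 7, which also carries Tnnt1, and Myh7 and Tnnc1 are both on chromosome 14. The Tnnc1 to Tnnc2 ratio did not pass with that of Myh7 to Myh4 (r 0.40, permutation p 0.214, adjusted 0.238, rho 0.55, adjusted p 0.11). The r was -0.07 among the lower library numbers but 0.87 among the upper, where the Tnnc1 to Tnnc2 ratio also had r 0.98 with that of Tnni1 to Tnni2 and 0.94 with that of Tnnt1 to Tnnt3. Over all 11 libraries it did not pass with the Tnni1 to Tnni2 ratio (r 0.47, permutation adjusted p 0.182, rho 0.49, adjusted p 0.145). With the Tnnt1 to Tnnt3 ratio it passed by r (0.66, permutation adjusted p 0.0443) but not by rho (0.63, adjusted p 0.0631). That r was 0.13 among the lower library numbers and 0.49 without iFAXLKO replicate 5 and WT replicate 4. The Tnnc1 to Tnnc2 ratio was -2.26 in iFAXLKO replicate 4 and -2.71 in iFAXLKO replicate 3, where the other ratios were between -5.80 and -4.36. Tnnc1 stood at 1.00 and 1.08 CPM in these libraries, near its 0.837 and 0.760 CPM in iFAXLKO replicate 8 and WT replicate 5. Tnnc2 was at 4.81 and 7.09 CPM against 0.159 and 1.01 CPM, and 74% of its exon bases are shared with Ube2c. Whether this ratio follows fibre type where Acta1 is low was not tested.

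With Acta1 itself the ratio of Tnni1 to Tnni2 had r 0.82 (permutation adjusted p 0.00235, rho 0.92, adjusted p 0.0012), that of Myh7 to Myh4 0.78 (adjusted p 0.00832, rho 0.78, adjusted p 0.0104) and that of Tnnt1 to Tnnt3 0.65 (adjusted p 0.0443, rho 0.79, adjusted p 0.0104). Among the lower library numbers these r were 0.89, 0.87 and 0.79, and among the upper 0.93, 0.71 and 0.84. Leaving out the pair farthest from the median of each ratio gave 0.72 for Tnni1 to Tnni2 (without iFAXLKO replicates 4 and 5), 0.84 for Myh7 to Myh4 (without iFAXLKO replicate 3 and WT replicate 4) and 0.71 for Tnnt1 to Tnnt3 (without iFAXLKO replicate 5 and WT replicate 4). The ratio of Tnnc1 to Tnnc2 had r -0.01 with Acta1 (adjusted p 0.968, rho 0.34, adjusted p 0.314), with -0.46 among the lower and 0.96 among the upper library numbers. Tnni1 had 31.0, 27.4, 4.13, 1.49 and 0.0422 CPM in WT libraries 1 to 5 against 0, 1.39 and 58.2 as the lowest, median and highest of the iFAXLKO libraries, and Tnnt1 had 41.1, 40.9, 7.75, 2.07 and 0.169 CPM against 0.319, 2.93 and 77.9. Both slow genes had high and low libraries in each group.

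**Figure D4:**
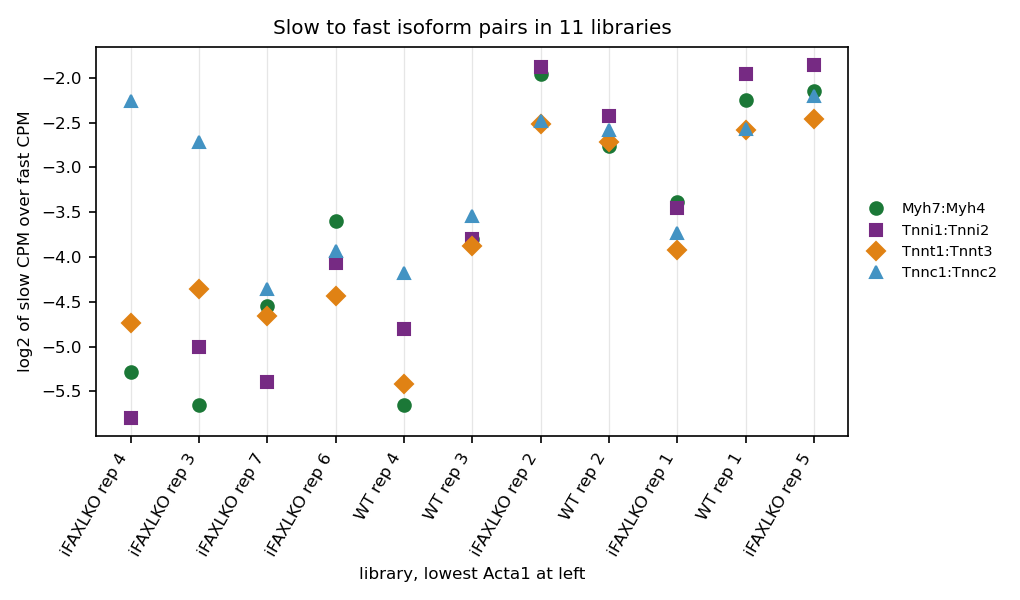
The log2 ratio of slow to fast CPM (y) for 4 pairs of genes in 11 libraries (x, lowest Acta1 at left), a colour and shape for each pair. The myosin, troponin I and troponin T ratios move together, from as low as -5.80 in the libraries at the left to as high as -1.85 in iFAXLKO replicate 5, while the troponin C ratio is also high in iFAXLKO replicates 4 and 3. The -5.80 rests on 3 counts of Tnni1.

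The groups were set up to compare iBAT with and without Cre activity against Axl in adipocytes, and the muscle genes are given here for that comparison. Of the 42 muscle genes that passed the filter on low values (Sln and Cav3 did not), 0 passed the limit between the libraries labelled iFAXLKO and WT (edgeR's quasi-likelihood test, adjusted p from 0.865 to 0.997), where the background was 0.127% of all genes tested, 17 of 13360. At an unadjusted p under 0.05 there were 0 of the 42 in edgeR, against 7.38% of all genes tested. In DESeq2 there were also 0 of the 42 at the adjusted and at the unadjusted limit, against 0.501% and 8.3% of all genes. The ranges of the groups overlapped for all 42, where 0.434% of all genes did not overlap. Of the 42 values 40 were negative and 2 positive, where 7158 of all 13360 genes tested were negative. Since the muscle genes vary together over the libraries, their signs are not independent. The median log2 fold change of the 42 was -0.23, against -0.01 over all genes tested.

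This median moved with single libraries. Leaving out WT replicate 1 turned it to 0.17 and leaving out WT replicate 2 to 0.00. Of the iFAXLKO libraries, the removal of replicate 4 or 8 gave -0.05, of replicate 3 gave -0.07, of replicate 7 gave -0.13 and of replicate 6 gave -0.14. It was farther from 0 when iFAXLKO replicate 5 (-0.91), WT replicate 5 (-0.54), iFAXLKO replicate 1 (-0.50) or WT replicate 4 (-0.39) was removed. With both libraries of the lowest Acta1 left out it was -0.35. The library numbers fall into a lower range (4 iFAXLKO and 2 WT libraries) and an upper range (4 and 3), and mean log2 CPM of iFAXLKO minus that of WT was negative for all 44 genes in the lower range (median -2.39) but positive for 32 of 44 in the upper (median 0.32). For Acta1 it was -2.68 and -0.12, and for Myh7 -3.98 and 1.32. What the ranges stand for is not given in the labels.

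By role the median log2 fold change was -0.22 for the thin filament, -0.14 for the thick filament, -0.14 for titin, the Z-disc and cytoskeleton, -0.23 for energy supply and -0.35 for excitation and calcium handling. The 12 fast-fibre genes had a median of -0.26 and the 5 slow-fibre genes of -0.16. The level of Acta1 was 356 ± 457 CPM (SD, n = 8) in the libraries labelled iFAXLKO and 428 ± 352 CPM (SD, n = 5) in WT. The log2 fold change fitted by edgeR was -0.27 (SE 1.30, edgeR adjusted p 0.986). Mean log2 CPM of iFAXLKO minus that of WT gave -1.06 (exact permutation p 0.642). The SD was as large as the mean in both groups or nearly so. The value farthest from 0 was that of Cacng1, -0.90 (SE 0.77, edgeR adjusted p 0.865), at 0.604 ± 0.656 against 1.14 ± 0.854 CPM, and the highest that of Myh2, 0.14 (SE 1.29, edgeR adjusted p 0.991).

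The 4 genes with the smallest fold between libraries also had the smallest SE, and 2 of them, Des and Myl1, had passed with Acta1. For Des the means were 136 ± 45.6 CPM (SD, n = 8) and 142 ± 50.5 CPM (SD, n = 5) and the log2 fold change was -0.07 (SE 0.26, edgeR adjusted p 0.981). Myl1 had 88.1 ± 49.8 against 95.6 ± 40.8 CPM and -0.12 (SE 0.39, edgeR adjusted p 0.979), Jph1 -0.16 (SE 0.38, edgeR adjusted p 0.970) and Mb -0.15 (SE 0.40, edgeR adjusted p 0.973). For most other genes the SE was near 1 on the log2 scale, the size of a 2-fold difference.

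**Figure D5:**
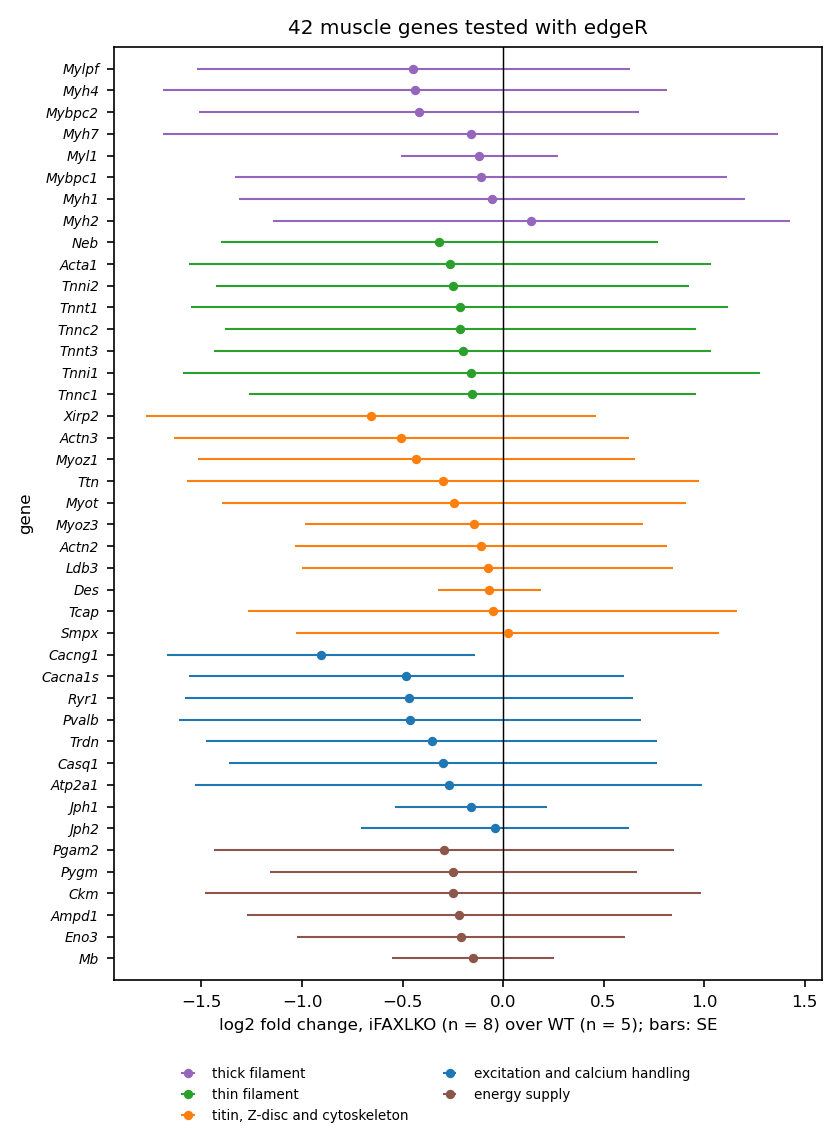
Log2 fold change of iFAXLKO (n = 8) over WT (n = 5) for the 42 genes tested with edgeR (x), grouped by role, with bars of 1 SE. The bar of each gene except Cacng1 crosses 0, none passed the limit, and the bars of Des, Jph1, Myl1 and Mb are the shortest.

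Further lists of genes were read for the same correlation with Acta1. Of 25 other sarcomere genes tested 21 passed, among them Tpm2 (r 0.93, rho 0.99, permutation adjusted p 0.00108) and Tpm1 (r 0.85, rho 0.97, adjusted p 0.011), tropomyosins that lie along the actin filament and had the highest levels of that list. Tpm3, a further tropomyosin, at 47.5 to 99.8 CPM, did not pass by r (0.64, adjusted p 0.781) but did by rho (0.86, adjusted p 0.0226). The chaperone Unc45b had r 0.54 (adjusted p 0.971) at 27.5 to 43.8 CPM, and Myl4, the atrial light chain, 0.47 (adjusted p 0.971). Of 15 other excitation and calcium genes 6 passed, which were Jsrp1, Hrc, Scn4a, Clcn1, Stac3 and Cacnb1 (r 0.81 to 0.97). Atp2a2, the pump SERCA2 of slow fibres, heart and other cells, had r 0.05 (rho 0.22, permutation adjusted p 0.991) at 186 to 367 CPM. Without iFAXLKO replicate 8 and WT replicate 5 its r was 0.68, and it was 0.71 among the lower but -0.25 among the upper library numbers. Of the acetylcholine receptor genes of the nerve-muscle junction, Chrna1, Chrnd and Chrne were under the filter, as was Musk, at no more than 1.57 CPM. Chrnb1, a further subunit, was tested at 2.91 to 5.57 CPM and had r -0.04 (adjusted p 0.992).

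Of 16 other energy genes 3 passed, Ckmt2, Cox6a2 and Art1 (r 0.96 to 0.99), and the most abundant, Gpd1 and Aldoa, had r of 0.17 and 0.49 (permutation adjusted p 0.974 and 0.971). These low values rested on iFAXLKO replicate 8 and WT replicate 5, without which they were 0.69 and 0.70. Among the lower library numbers they were 0.94 and 0.80, and among the upper -0.28 and 0.28. Of the 6 myogenic regulators tested Myf6, named after its value was seen, passed (r 0.95, rho 0.98, permutation adjusted p 0.00108), at 0 to 4.42 CPM. Mef2a (r -0.30), the most abundant of the list, did not (adjusted p 0.971). Myod1 had at most 0.763 CPM and Pax7, the marker of satellite cells, at most 0.0435 CPM, and neither was tested.

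Markers of other cell types were set beside these values. The 12 smooth muscle genes summed to between 161 and 249 CPM, a fold of 1.54 over the libraries, and 1 of the 11 tested passed with Acta1, Ramp1 (r 0.89, rho 0.99, permutation adjusted p 0.00284), named after its value was seen. Smooth muscle also expresses Des, and Myh11 and Acta2 had r of -0.13 and 0.09 (adjusted p 0.978 and 0.985). Without iFAXLKO replicate 8 and WT replicate 5 these were -0.63 and -0.69. Synpo2, of the same list and named after its value was seen, went the other way. It did not pass by r (0.82, adjusted p 0.0949, 0.83 without that pair) but did by rho (0.98, adjusted p 0.000825). The median r of the 11 smooth muscle genes was 0.10 over all libraries, -0.53 without that pair, -0.66 among the lower and 0.52 among the upper library numbers. The cardiac list summed to 2.89 to 6.92 CPM, with Nppa and Nppb at 0 in every library and Myh6 below 1 CPM in each. Most of this sum was Myl4 (2.46 to 6.27 CPM), which is also among the other sarcomere genes, and every other gene of the cardiac list stayed below 1 CPM. Brown adipocyte genes summed to 10203 to 16865 CPM and 0 of 12 passed, with Ucp1 at r -0.27 (permutation adjusted p 0.971) and 0.21 without that pair, and of 10 adipocyte genes 0 passed. The tendon (0 of 1), nerve and Schwann cell (0 of 7) and fibroblast lists (0 of 9, 405 to 1225 CPM) had no gene past the limit either. The median r of the fibroblast list was 0.12, and -0.39 without that pair.

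Between the groups the other lists had 1 called gene, Adipoq, whose promoter drives the Cre, with a log2 fold change of 0.66 (SE 0.11, edgeR adjusted p 0.0118). The fibroblast list had 9 of 9 positive log2 fold changes with a median of 0.66, and 9 with an unadjusted p under 0.05, where 7.38% of all genes tested had one, the smallest for Lum (0.72, SE 0.15, edgeR adjusted p 0.122). Its part in the muscle values was not tested. Of 8 immediate early genes 1 passed with Acta1, Atf3 (r 0.84, rho 0.85, permutation adjusted p 0.00942), named after its value was seen, at 0.917 to 6.92 CPM, while Fos had r 0.64 and Jun 0.58 (permutation adjusted p 0.688 and 0.971). These lists were chosen with results of the same data known, and their counts are descriptions.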

How the data were processed

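RNA was sequenced from iBAT of 13 mice, with 1 library each. The authors deposited raw counts, 1 whole number per Ensembl gene in each library. The submitters' notes name bcl2fastq 2.20, fastp 0.20.0, STAR 2.7.4a, DESeq2 and GRCm38.p6, whereas the methods of the study name Trim Galore and hisat2. The counting tool and strand setting are not given in the sources used here. GENCODE M21 gave positions (counted from 1) and exon lengths. The 13360 genes above 1 CPM in 5 or more libraries were tested with edgeR 4.0.16 (TMM, robust quasi-likelihood F test, 2-sided, R 4.3.3), with Benjamini-Hochberg adjustment and a limit of 0.05. The SE is the log2 fold change divided by the square root of F. Correlations used log2 CPM with a prior count of 2 and 100000 random orders (all orders within the ranges of library numbers), 2-sided, for genes other than Acta1. Single genes were compared by exact permutation over 1287 splits (smallest p 0.000777). Simulated data were used to test the edgeR and correlation steps. Library pairs within a group differed by at least 15.3 chi-square units per degree of freedom, so each counted as 1 replicate.

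Members and lists were chosen with earlier results of these data known. Named genes are the 44, the 5 other genes with the highest r, and up to 4 genes per further list (smallest p, highest level), of which some are not reported here. Alternatives were DESeq2 1.42.0, limma-voom (limma 3.58.1), other scaling, library sizes, filters and dispersions, a replicate block, the library number range and leaving out each library.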

Additional observations from a re-analysis of the deposited data

Results flagged for a closer look

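Of 21 genes tested in each of the 2 groups on log2 CPM, 9 had 1 WT library standing apart by Dixon's criterion for 5 samples (0.71), and chance gives about 1 in 20 groups. It was WT replicate 5, the lowest, each time, and since these genes vary together the 9 are not independent. The gap to the next library took 0.773 of the range for Acta1 (4.81 CPM), 0.769 for Ckm (2.36 CPM), 0.769 for Myh1 (0.549 CPM), 0.805 for Myh4 (4.48 CPM), 0.789 for Tnnt3 (1.31 CPM), 0.736 for Tnni2 (1.18 CPM), 0.735 for Tnnc2 (1.01 CPM), 0.772 for Atp2a1 (4.39 CPM) and 0.726 for Ttn (1.56 CPM). In the libraries labelled iFAXLKO no gene stood apart by this criterion, although replicate 8 was lower still, since replicates 3 and 4 lay between it and the others. Without iFAXLKO replicate 8 and WT replicate 5, chosen after seeing the data, 0 of 42 muscle genes passed the limit between the groups.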

How the results depend on the processing

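The count of muscle genes called between the groups was 0 under all 26 alternatives. Genes called in all were 17, 67 with DESeq2, 23 with limma-voom and 7 with the replicate number as a block. There were 11 without iFAXLKO replicate 8 and WT replicate 5, and 14 to 19 with single libraries removed. The cause was not tested. The replicate numbers did not pair the samples (correlations of the deviations -0.61 to 0.42), and the block moved the median of the muscle genes from -0.23 to -0.75 and Acta1 to -1.02. This median was -0.52 with limma-voom (38 of 42 negative) and -0.10 with the library number range as a covariate (30 of 42 negative). Genes correlated with Acta1 were 36 to 40 of 41. Within either range of library numbers, of 6 and 7 libraries, 0 passed. There the few orders limit how small the permutation p can be, and all 41 kept a positive r. Among values that turned in sign, none of them called, limma-voom gave 0.0205 for Myl1 and 0.0944 for Des, the block 0.00027 for Mb and 0.10 for Des, and the library number range 0.30 for Myh7. Leaving out 1 library gave Acta1 -0.94 to 0.19, Myh7 -1.32 to 0.85, Ttn -0.997 to 0.66, Des -0.25 to 0.0782, Myl1 -0.36 to 0.11 and the median of the muscle genes -0.91 to 0.17. The depth limits the 22 genes with 3 counts or fewer in iFAXLKO replicate 8, whose shares there rest on those counts.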
